A study of Mus musculus with 13 samples.

Results

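The genes described here encode the proteins of the cytosolic ribosome, as measured in the livers of 13 male C57BL/6 mice that had all been kept for 5 months on a high-fat diet of western style. They were taken as every gene whose name on the array follows the pattern of large subunit (Rpl), small subunit (Rps) or stalk (Rplp) proteins, which gave 77 of 27962 gene names: 46 of the large and 31 of the small subunit. The 3 genotypes differ at 1 residue of SIRT1, a deacetylase that uses NAD: 5 WT mice carry the unchanged protein, 5 TAKI mice an allele named SIRT1 TA KI in the labels, and 3 TEKI mice an allele named SIRT1 TE KI. The series concerns phosphorylation at T522 (a threonine), and the labels' letters read as alanine and glutamate in its place, a residue that cannot be phosphorylated and one that is used to mimic phosphorylation. No treatment other than the diet was given, the sources used here do not give the age of the mice, and the alleles are described as knock-ins with no promoter or Cre driver named. Total RNA of 1 mouse was hybridised to each 1-colour Agilent array. The level of a gene below is its log2 intensity minus the 75th percentile of that array, for the brightest probe of the gene.

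A ribosome is built from ribosomal RNA and one copy each of most of these proteins, and growing cells spend a large part of their transcription on them. Their mRNAs belong to the best known group of coordinately regulated transcripts. They start with a C followed by a run of pyrimidines, the 5′ terminal oligopyrimidine (TOP) tract, through which mTORC1 and the RNA-binding protein LARP1 control their translation. The arrays measured mRNA level only, not translation.

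The start of these transcripts is shown first, since it is the feature the name pattern did not use and by which the group is known. RefSeq starts (GRCm38.p6) were matched for 57 of the 77 genes, with 68 starts in all. The windows below run from 10 bases before the start to the 20th base of the transcript, and capitals mark the longest run of pyrimidines. The first 5 are members whose tract spans the annotated start, and the last 3 are members, named in the results below, in which it does not.
Rps6 (chr4:86857348-86857377, minus strand): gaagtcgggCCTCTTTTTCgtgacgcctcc
Rps10 (chr17:27635225-27635254, minus strand): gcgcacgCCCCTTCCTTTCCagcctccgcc
Rps18 (chr17:33955646-33955675, minus strand): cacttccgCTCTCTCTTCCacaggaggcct
Rps27 (chr3:90213629-90213658, minus strand): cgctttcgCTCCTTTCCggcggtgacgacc
Rplp2 (chr7:141447641-141447670, plus strand): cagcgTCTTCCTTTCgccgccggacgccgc
Rpl11 (chr4:136053374-136053403, minus strand): ccataaggccacggggccggaagTCTCCCT
Rpl10 (chrX:74270806-74270835, plus strand): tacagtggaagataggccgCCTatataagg
Rpl3l (chr17:24727816-24727845, plus strand): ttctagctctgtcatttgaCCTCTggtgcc

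A C followed by 4 pyrimidines stood exactly at 13 of the 68 member starts (19.1%), against 2.51% of all 32851 RefSeq starts. A run of at least 6 pyrimidines lay in the 30-base window of 36 member starts (52.9%, all starts 28.7%), and a run of at least 8 in 22 (32.4%, all starts 11.2%). In the longer window from 250 bases before to 50 after the start, read on both strands, the ETS-type motif CCGGAAG was present at 35.3% of member starts and 8.86% of all starts. The YY1-type motif AAGATGG was present at 16.2% and 6.34%, and the TATA motif TATAAA at 8.82% and 13.6%. An annotated start can lie some bases from the start used in liver, so that the count at the exact base is the most affected of these counts.

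The 9 hepatocyte markers measured all passed the scanner's background test in every liver. One array stands apart: on TEKI replicate 1, 86.6% of probes were well above background (59.9% to 72.6% on the other 12), and its column median of deposited intensity was 137 (49.1 to 94.5 on the others). TAKI arrays share no slide with another genotype, so that slide and genotype cannot be told apart for them. The TEKI arrays share slide 3 with WT replicate 5. As the labels do not describe the animals further, litters and cages are unknown. Each p-value sets a difference between genotypes against the spread between these mice within a genotype. With 5, 5 and 3 arrays, the number of animals limits the precision.

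All 77 genes were tested, and 76 of them were well above background on all 13 arrays, with no saturated spot. The exception was Rpl3l, the muscle paralog of Rpl3, which was well above background on 4 arrays. No ribosomal protein gene passed the threshold in any of the 3 comparisons by limma (adjusted p under 0.05 over 20564 genes), where 2.84% of all genes passed for TAKI minus WT, 0.00486% for TEKI minus WT and 3.46% for TEKI minus TAKI. At an unadjusted p under 0.05 the count for TAKI minus WT was 4 of 77, all lower in TAKI (all genes 14.7% in either direction and 5.31% lower). It was 0 of 77 for TEKI minus WT (all genes 11.6%) and 0 of 77 for TEKI minus TAKI (all genes 12.1%). The smallest adjusted p among the members was 0.182, 0.471 and 0.432 in the same order.

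Under the scaling to the 75th percentile, the differences had narrow intervals. Over the 76 genes, the 95% interval of TAKI minus WT lay within 1.5-fold in either direction for all 76, against 49.8% of all genes tested. For TEKI minus WT it did so for 74 of 76 (all genes 45.3%), and for TEKI minus TAKI for 74 of 76 (all genes 44.5%). Rpl21 and Rps18 were the exceptions in both. These bounds hold for that scaling: under median scaling, where the median of all genes was -0.36 for TEKI minus WT, the difference was -0.64 for Rps27a, -0.62 for Rps18 and -0.59 for Rps12, all past 1.5-fold. The median SE of a TAKI minus WT difference was 0.105 for these genes and 0.182 for all genes. A member's SD among WT livers was 0.157 at the median, compared with 0.178 for the brightest 25% of all genes and 0.270 for all genes. The corresponding SDs among TAKI livers were 0.151, 0.153 and 0.235, and among TEKI livers 0.113, 0.145 and 0.268. Among WT livers, Rpl29 (SD 0.293), Rpl36 (0.274) and Rpl4 (0.272) varied most, and Rpl30 (0.049), Rpl39 (0.055) and Rpl27a (0.070) least.

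**Figure D1:**
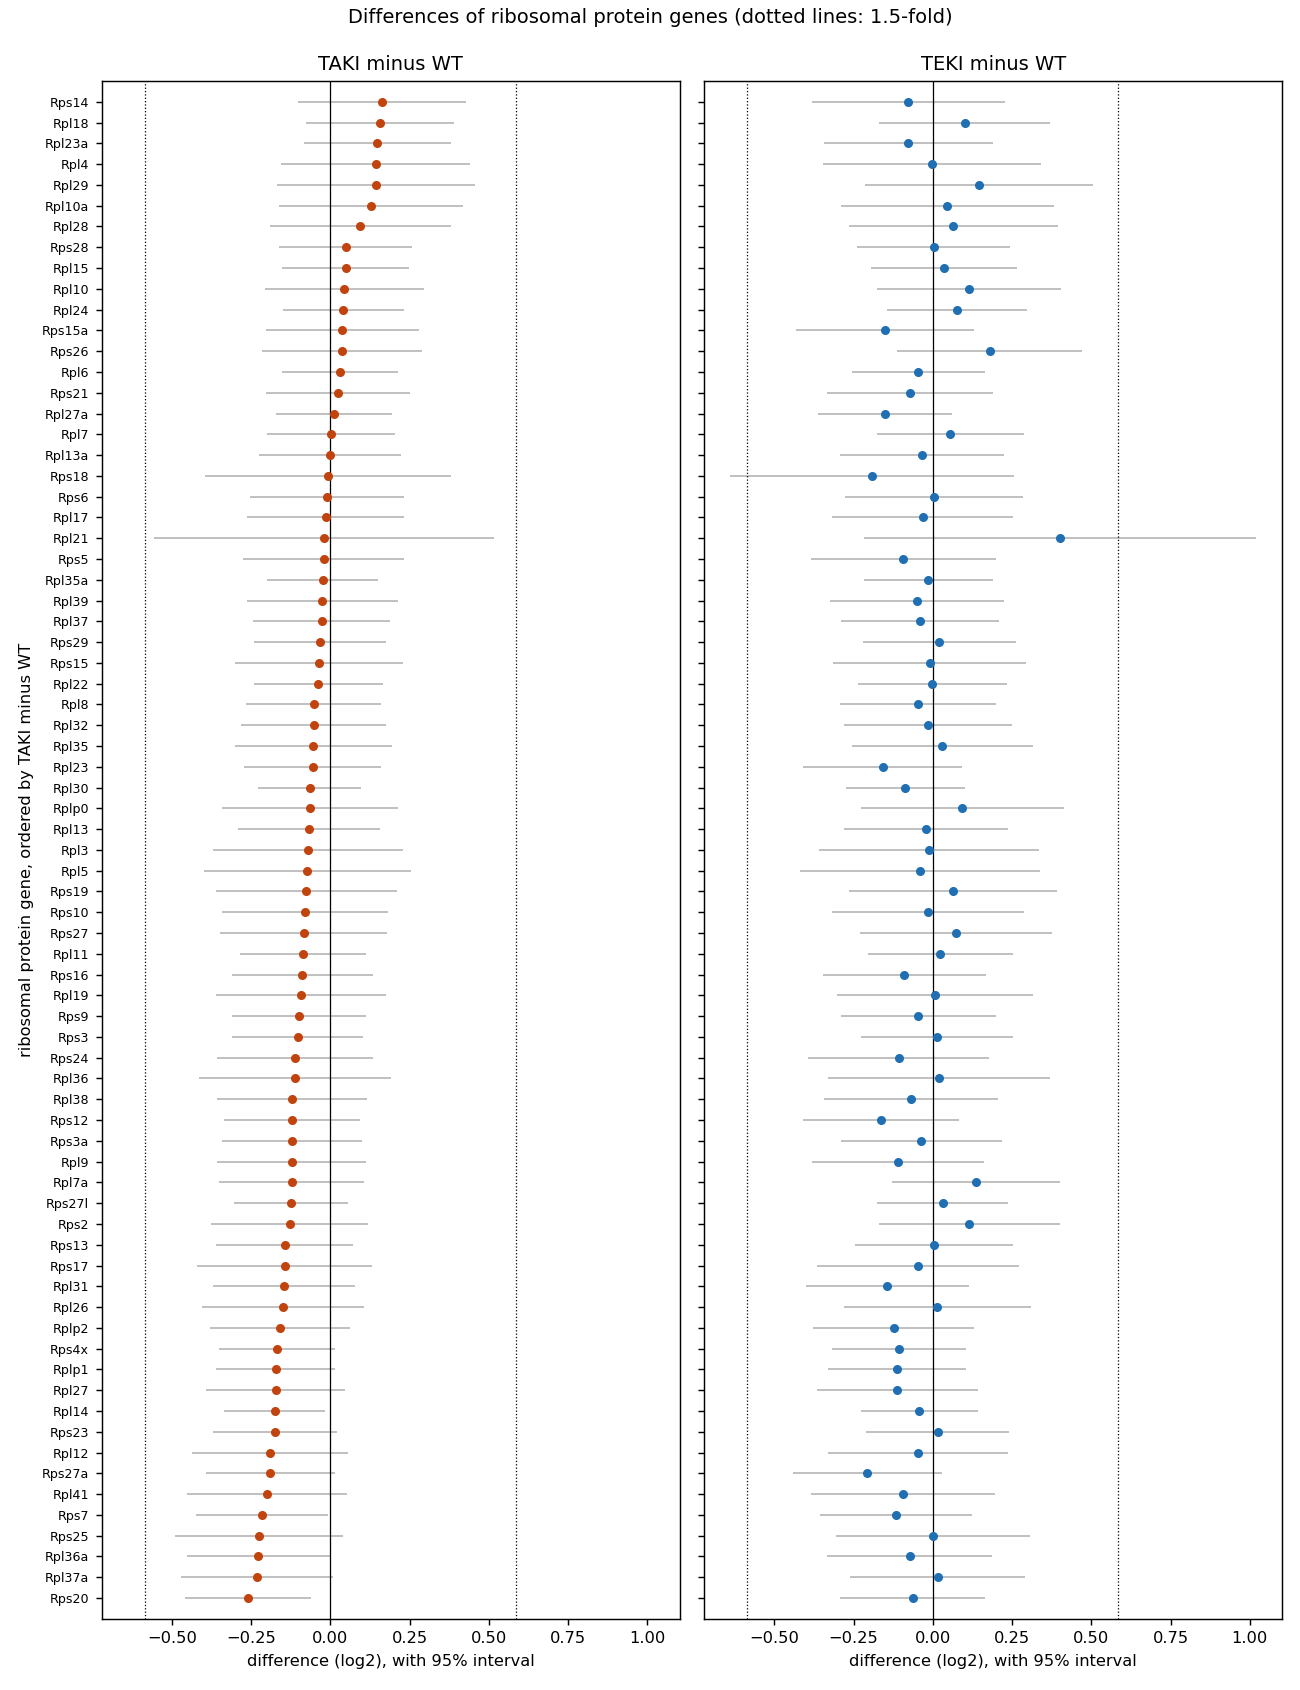
Differences (log2) of TAKI minus WT (left) and TEKI minus WT (right) for 73 of the 76 ribosomal protein genes well above background on all arrays, as points with 95% intervals from the limma model; dotted lines mark 1.5-fold. All 73 intervals lie between the lines on the left, and 71 on the right, where Rpl21 and Rps18 reach past them.

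The median difference took its sign from the scaling in 2 of the 3 comparisons and its size from it in all 3. For TAKI minus WT it was -0.07, with 57 of 76 genes below 0 (49.6% of all genes), and it turned to 0.15 on the deposited values without scaling, where the median of all genes was 0.22. The median was -0.05 for the 45 large subunit genes and -0.10 for the 31 of the small subunit. For TEKI minus WT it was -0.01, with 45 of 76 below 0 (37.5% of all genes, whose median was 0.07), and -0.44 under median scaling, where the median of all genes was -0.36. Within slide 3, where the 3 TEKI arrays met WT replicate 5 alone, this median was -0.19. For TEKI minus TAKI it was 0.04, with 51 of 76 above 0 (60.6% of all genes), and -0.24, -0.06 and -0.23 under median scaling, quantile normalization and no scaling. Both knock-ins were set against the same 5 WT arrays, so these comparisons are not independent of each other. For TAKI minus WT, most of the brightest 25% of all genes were below 0 too, except in the last rows of the array. The counts were 968 of 1247 in rows 1 to 133 and 1020 of 1304 in rows 134 to 266. They were 904 of 1341 in rows 267 to 399 and 611 of 1249 in rows 400 to 532. For TEKI minus WT the counts below 0 in the same rows were 575, 684, 743 and 718. A majority below 0 for TAKI minus WT was thus not particular to the members.

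Differences between livers of one genotype were larger than those between genotypes. Relative to the WT mean of each gene, the median of the 76 genes on an array was 0.01, -0.22, 0.04, 0.00 and 0.16 in WT livers 1 to 5. It was -0.20, 0.11, -0.02, -0.18 and -0.03 in TAKI livers 1 to 5, and -0.12, 0.06 and 0.01 in TEKI livers 1 to 3. The genotypes overlapped throughout, with means of 0.00 ± 0.138 (SD, n = 5) for WT, -0.06 ± 0.127 (SD, n = 5) for TAKI and -0.02 ± 0.093 (SD, n = 3) for TEKI.

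Nearly the whole set shifted on the arrays at the edges. Of the 76 genes, 1 stood above its WT mean in WT liver 2, 4 in TAKI liver 1, 8 in TEKI liver 1 and 9 in TAKI liver 4. In contrast, 71 did so in WT liver 5, 62 in TAKI liver 2 and 57 in TEKI liver 2. Arrays of 1 slide differed in this way too: WT livers 1 and 2 were both on slide 1, and TAKI livers 1 and 2 both on slide 4. Large and small subunit genes moved alike, with array medians of -0.22 and -0.22 in WT liver 2 and 0.15 and 0.17 in WT liver 5. On these arrays the brightest 25% of all genes stood nearer to their WT mean. Their medians were -0.10 in WT liver 2, -0.03 in TAKI liver 1, -0.09 in TEKI liver 1 and -0.11 in TAKI liver 4. They were 0.10 in WT liver 5, and of opposite sign to the members in TAKI liver 2 (-0.07) and TEKI liver 2 (-0.01). Some other lists moved like the members in WT livers 2 and 5. Hepatocyte markers gave -0.21 and 0.16, mitochondrial ribosomal proteins -0.16 and 0.20, and translation factors with TOP tracts -0.15 and 0.22. Ribosome biogenesis factors moved less there (-0.05 and 0.07). In TAKI livers 1 and 2, hepatocyte markers went the other way from the members (0.19 and -0.10). Mitochondrial ribosomal proteins (-0.02 and -0.01), translation factors with TOP tracts (-0.04 and -0.07) and ribosome biogenesis factors (0.02 and -0.06) did not follow them. Ribosomal proteins whose names fall outside the pattern did (-0.17 and 0.12, with -0.22 and 0.21 in WT livers 2 and 5). The sources used here do not give the order of labelling and hybridisation, and its part in these shifts was not tested.

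**Figure D2:**
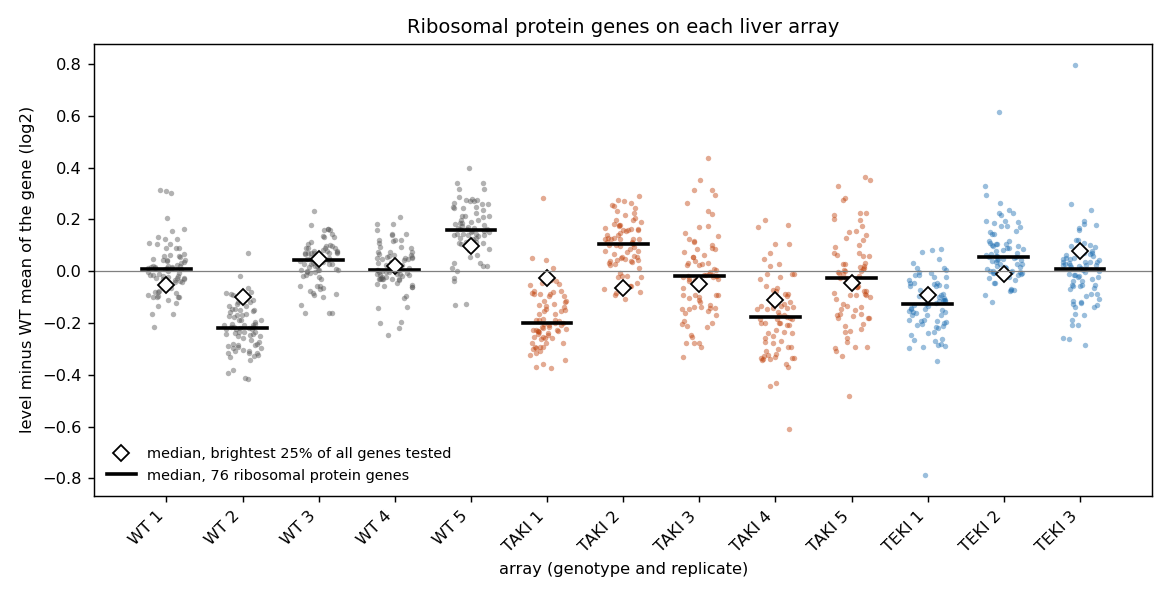
Level of each of 76 ribosomal protein genes minus its WT mean (log2, vertical axis) on the 13 arrays (horizontal axis); points are genes, bars the median of the genes and diamonds the median of the brightest 25% of all genes tested. The bars range from -0.22 (WT 2) to 0.16 (WT 5) within WT and from -0.20 (TAKI 1) to 0.11 (TAKI 2) within TAKI, and the genotypes overlap.

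The genes rose and fell together across animals. Over the 13 arrays, which share their scaling and their RNA between genes, the median Pearson correlation of the 2850 pairs of members was 0.60, with 2734 pairs above 0 and the middle 80% of pairs between 0.17 and 0.84. The median over pairs of all genes was 0.034. Those pairs include dim genes, and pairs of genes as bright as the members were not compared. Pairs within the large subunit had a median of 0.579, pairs within the small subunit 0.637 and mixed pairs 0.604. Against the median of the other members, Rps10, a protein of the small subunit head, had the highest correlation (0.966). Another 14 genes reached 0.9, among them Rpl19 (0.958), Rpl32 (0.958), Rpl8 (0.954) and Rpl35 (0.943), all chosen for naming after their values were seen. Rps10 stood at 4.88, 4.55, 4.85, 4.82 and 5.10 in WT livers, 4.59, 5.01, 4.74, 4.64 and 4.82 in TAKI livers and 4.67, 5.02 and 4.79 in TEKI livers. Its lowest and highest WT values fell in livers 2 and 5, as for the median of the set.

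Correlations with the median of the other members under 0.5 were found for 7 genes: Rpl31 (0.195), Rpl27a (0.264), Rps28 (0.267), Rpl21 (0.336), Rpl23a (0.339), Rpl4 (0.360) and Rpl18 (0.401). Rpl31 stood at 0.33, 0.43, 0.30, 0.50 and 0.23 in WT livers, 0.16, 0.52, 0.08, 0.17 and 0.12 in TAKI livers and 0.26, 0.31 and 0.07 in TEKI livers. In WT it was lowest in liver 5, where 71 of the 76 genes stood above their WT mean.

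Among small subunit proteins, Rps20, which binds the head of the subunit, had the lowest TAKI minus WT difference. It stood at 7.83, 7.56, 7.79, 7.76 and 7.91 in WT livers, 7.46, 7.69, 7.53, 7.41 and 7.47 in TAKI livers and 7.58, 7.75 and 7.80 in TEKI livers. A single TAKI value, from liver 2, lay inside the WT range. The difference of -0.26 (SE 0.091, or 0.835 times the WT level) did not pass the threshold by limma (adjusted p = 0.182). Its adjusted p by limma was 0.045 when arrays were weighted by their quality, and ranged up to 0.870 over the alternatives tried. With those weights 2263 of 20564 genes passed for TAKI minus WT, against 585 without them. A second Rps20 probe gave -0.25.

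Rps7, a small subunit protein that also binds Mdm2, stood at 7.06, 6.94, 7.16, 7.07 and 7.17 in WT livers, 6.85, 7.16, 6.80, 6.74 and 6.75 in TAKI livers and 6.93, 7.04 and 6.91 in TEKI livers. Here, too, 4 of 5 TAKI livers lay below every WT liver and liver 2 did not (difference -0.22, SE 0.095, limma adjusted p = 0.319). The other members under an unadjusted p of 0.05 were Rpl14 (-0.18, adjusted p = 0.282) and Rpl36a (-0.23, adjusted p = 0.338) of the large subunit. Rps7 and Rpl14 were chosen for naming after their values were seen. Among the 76 genes, the lowest 3 TAKI differences were those of Rps20, Rpl37a (-0.23) and Rpl36a, and the highest were those of Rps14 (0.16) and Rpl18 (0.16). No member had TAKI and WT livers without overlap (all genes 7.5%).

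Rps6 is the substrate of the S6 kinases, and its phosphorylation is the usual readout of mTORC1. Its mRNA stood at 5.65, 5.41, 5.46, 5.62 and 5.96 in WT livers, 5.54, 5.74, 5.58, 5.53 and 5.64 in TAKI livers and 5.50, 5.79 and 5.58 in TEKI livers. All TAKI and TEKI values lay inside the WT range. The differences were -0.01 for TAKI (95% interval -0.25 to 0.23) and 0.00 for TEKI (-0.28 to 0.28). Phosphorylation was not measured.

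Rps27a is made as a fusion of ubiquitin with a small subunit protein, and it had the lowest TEKI minus WT difference. It stood at 6.90, 6.76, 6.71, 6.92 and 6.92 in WT livers, 6.68, 6.90, 6.63, 6.51 and 6.55 in TAKI livers and 6.57, 6.75 and 6.58 in TEKI livers. The highest TEKI value lay within the WT range (difference -0.21, SE 0.108, limma adjusted p = 0.471). Next lowest among the 76 genes were Rps18 (-0.19) and Rps12 (-0.16), and the highest were Rpl21 (0.40), Rps26 (0.18) and Rpl29 (0.14). No member had TEKI and WT livers without overlap (all genes 3.9%).

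Rps18, of the small subunit head, owed its difference to 1 array. It stood at 8.57, 8.32, 8.64, 8.55 and 8.71 in WT livers, 8.48, 8.83, 8.73, 8.32 and 8.38 in TAKI livers and 7.77, 8.60 and 8.73 in TEKI livers. The low value was that of TEKI liver 1, and without that array the difference was 0.11. A second Rps18 probe gave 0.05 for TEKI minus WT over all arrays.

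In the large subunit, Rpl21 had the largest SD of the 76 genes within both knock-in groups. Its brightest probe, which the array assigns to a predicted transcript, stood at 2.60, 2.17, 2.23, 2.09 and 2.35 in WT livers, 2.57, 2.55, 2.73, 1.68 and 1.81 in TAKI livers and 2.08, 2.90 and 3.09 in TEKI livers. The TAKI livers fell into 3 at the upper end of WT or above and 2 below every WT liver. The TEKI minus WT difference was 0.40 (95% interval -0.22 to 1.02), and -0.03 under median scaling. A second probe, for the curated Rpl21 transcript, gave -0.03. Rpl21 has many processed copies in the genome, so the 2 probes may not measure the same transcripts.

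The stalk proteins Rplp0, Rplp1 and Rplp2 bind the translation factors. Rplp0, often used as a reference gene and present on 10 spots of the array, stood at 4.05, 3.68, 3.99, 3.96 and 4.26 in WT livers, 3.87, 4.21, 3.99, 3.65 and 3.88 in TAKI livers and 3.98, 4.22 and 4.03 in TEKI livers. The spots used (7 on WT replicate 4, 9 on TAKI replicate 2 and 10 on the other arrays) varied with an SD of 0.031 to 0.091 within an array, less than the SD of 0.213 between WT livers. The differences were -0.07 for TAKI (95% interval -0.34 to 0.21) and 0.09 for TEKI (-0.23 to 0.41). Rplp1 gave -0.17 and -0.11, and Rplp2 -0.16 and -0.12, with limma adjusted p from 0.395 to 0.722.

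Rpl5 and Rpl11 join 5S rRNA in a particle that, when free, binds Mdm2 and stabilises p53. Rpl5 stood at 7.23, 6.74, 7.22, 6.99 and 7.44 in WT livers, 7.01, 7.38, 7.15, 6.82 and 6.89 in TAKI livers and 6.98, 7.31 and 6.96 in TEKI livers. Rpl11 ranged from 7.71 to 8.12 in WT livers, 7.72 to 7.96 in TAKI livers and 7.83 to 8.01 in TEKI livers. For both genes every knock-in value lay inside the WT range. The TAKI and TEKI differences were -0.07 and -0.04 for Rpl5, and -0.09 and 0.02 for Rpl11. Rps27l, the paralog of Rps27 that p53 induces, gave -0.12 and 0.03, and Rps27 itself -0.08 and 0.07.

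**Figure D3:**
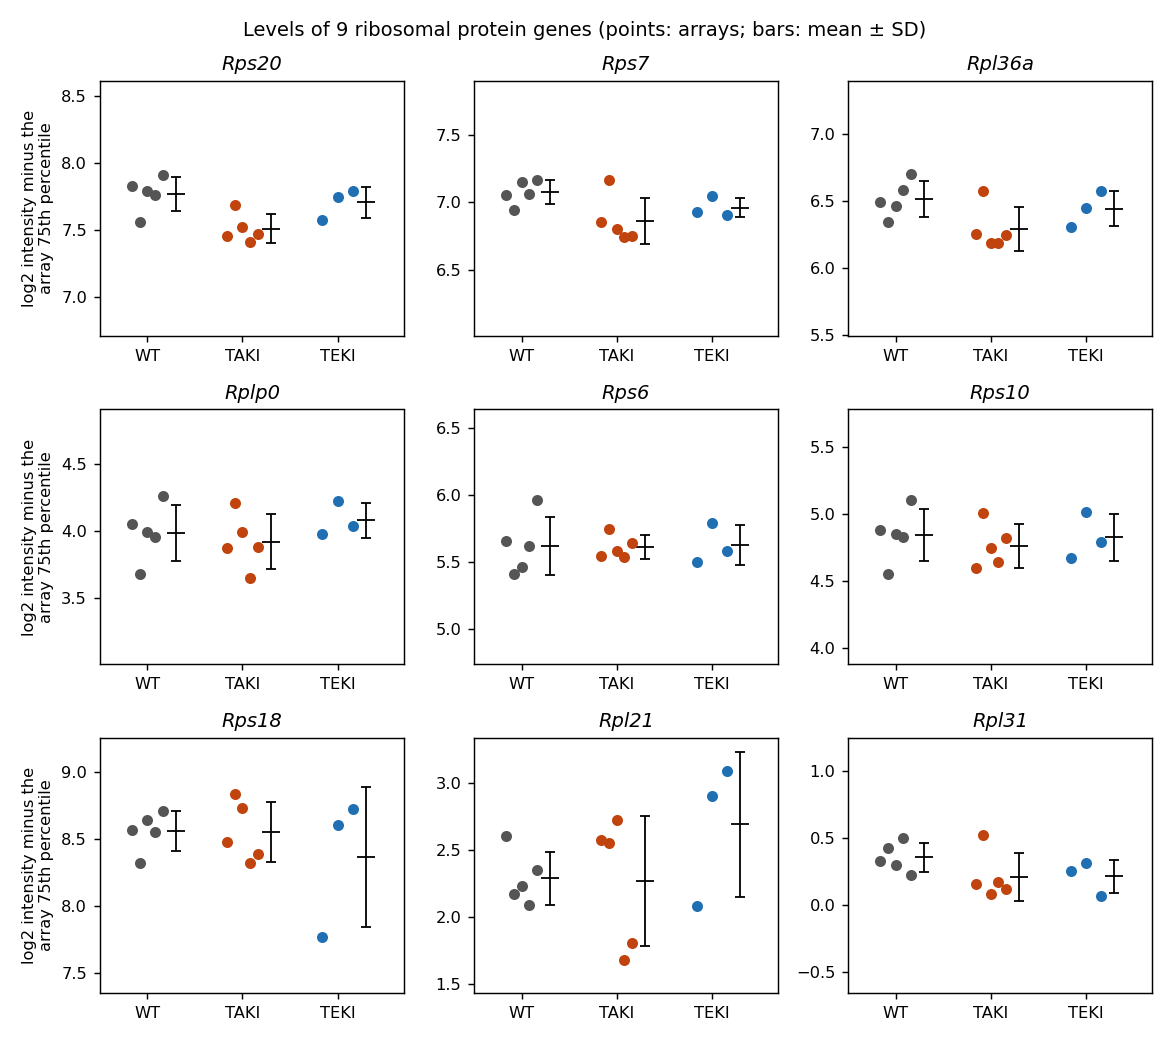
Levels (log2 intensity minus the 75th percentile of the array) of 9 ribosomal protein genes in WT, TAKI and TEKI livers; points are livers in order of replicate number, bars the mean ± SD, and each panel spans the same number of log2 units. TAKI livers other than liver 2 lie below the WT range for Rps20 and Rps7, and TEKI liver 1 is the low point of Rps18.

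Among core proteins of the large subunit with a tissue-restricted paralog, Rpl3, at the peptidyl transferase centre, gave -0.07 for TAKI and -0.01 for TEKI. Rpl10, which joins the subunit last in its maturation, gave 0.04 and 0.11, and Rpl39, at the exit of the nascent chain tunnel, -0.03 and -0.05. The paralog Rpl3l was well above background in 0 of 5 WT livers, 3 of 5 TAKI livers and 1 of 3 TEKI livers. Its signal stood at -5.55, -6.15, -7.05, -6.10 and -6.80 in WT livers, -5.56, -5.65, -4.75, -5.15 and -4.62 in TAKI livers and -3.03, -7.42 and -6.21 in TEKI livers. The high TEKI value came from liver 1, the array that stands apart. As the gene entered the test only through arrays of knock-in livers and no WT liver had it well above background, its values are given as a description, with no fold and no test. The sign of TAKI minus WT turned under normexp background correction (-0.14).

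TEKI and TAKI livers did not overlap for 4 genes, all higher in TEKI: Rpl7a (0.26), Rps2 (0.24), Rps23 (0.19) and Rpl14 (0.13). Of all genes, 5.55% were higher in TEKI without overlap, which for 77 genes is about the same count. Rps2, Rps23 and Rpl14 were chosen for naming after their values were seen. Rpl7a stood at 8.45, 8.43, 8.48, 8.18 and 8.37 in TAKI livers, 8.59, 8.59 and 8.74 in TEKI livers and 8.22 to 8.70 in WT livers. The limma adjusted p of the 4 genes was 0.432 to 0.592. Among the 76 genes, Rpl21 (0.42), Rpl7a and Rpl37a (0.25) had the highest TEKI minus TAKI differences, and Rps14 (-0.24), Rpl23a (-0.23) and Rps15a (-0.19) the lowest.

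The differences of the members, and of bright genes in general, moved with the place of a probe on the array. For TAKI minus WT the median was -0.11 for the 13 genes in rows 1 to 133, where 0 of 13 were above 0, and -0.10 for the 27 genes in rows 134 to 266. It was -0.06 for the 23 genes in rows 267 to 399 and 0.04 for the 13 genes in rows 400 to 532, where 9 of 13 were above 0. Over the same rows the brightest 25% of all genes had medians of -0.10, -0.09, -0.06 and 0.01. Such a rise was not seen over all genes tested, whose medians were 0.020, 0.010, -0.004 and -0.011. For TEKI minus WT the medians of the members were 0.00, -0.01, -0.04 and -0.08, and those of the brightest 25% 0.01, -0.01, -0.02 and -0.02. For TEKI minus TAKI they were 0.15, 0.08, 0.01 and -0.07 for the members and 0.10, 0.08, 0.03 and -0.03 for the brightest 25%. All genes tested had medians of 0.05, 0.08, 0.08 and 0.08 for TEKI minus WT. Their TEKI minus TAKI medians were 0.015, 0.077, 0.094 and 0.066. Of the genes named above, Rps20 lies in row 128. The genes higher in TEKI than in TAKI without overlap lie in rows 8 (Rpl7a), 74 (Rps23), 96 (Rps2) and 172 (Rpl14), and the lowest in TEKI minus TAKI in rows 482 (Rps14), 505 (Rps15a) and 517 (Rpl23a). The part of position in any single difference was not tested.

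**Figure D4:**
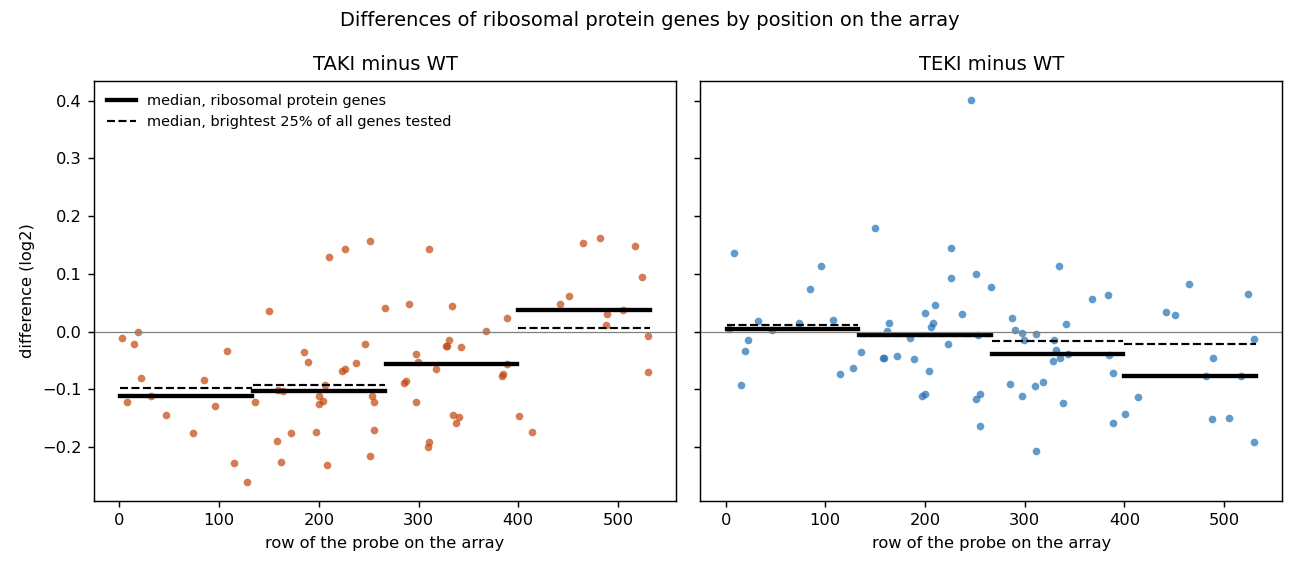
TAKI minus WT (left) and TEKI minus WT (right) differences (log2) of 76 ribosomal protein genes against the row of their probe on the array; solid lines are medians of these genes and dashed lines medians of the brightest 25% of all genes tested in the same rows. On the left the medians go from -0.11 in the first rows to 0.04 in the last for these genes, and from -0.10 to 0.01 for bright genes in general.

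Of the 77 genes, 37 have more than 1 probe. For the 32 other probes that were bright as well, the difference between probes of a gene was 0.045 at the median for TAKI minus WT and 0.050 for TEKI minus WT, with a largest value of 0.244 and 0.243. Dim probes agreed less. A dim Rps18 probe gave -0.57 for TAKI minus WT against -0.01 for the brightest, a dim Rps6 probe 0.46 against -0.01, and a dim Rps4x probe 0.70 for TEKI minus WT against -0.11. A dim Rps15a probe gave 0.40 for TEKI minus WT against -0.15. Members of this family have many processed pseudogenes, and cross-hybridisation to their transcripts was not tested.

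The genes that work with the ribosomal proteins did not pass the threshold either. In ribosomal proteins whose names fall outside the pattern (8 tested), 0 were called by limma in any comparison and 0 had an unadjusted p under 0.05, with medians of -0.03 for TAKI and -0.08 for TEKI. Gnb2l1, the scaffold protein RACK1, gave -0.16 and -0.10. Fau, made as a fusion with a ubiquitin-like protein, gave -0.18 and 0.01, and Rpl22l1, the paralog of Rpl22, gave 0.02 and -0.15.

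Translation factors whose mRNAs also carry TOP tracts (24 tested, 0 called by limma) had medians of -0.07 for TAKI and -0.02 for TEKI. At an unadjusted p under 0.05 there were 2 for TAKI (all genes 14.7%) and 0 for TEKI (all genes 11.6%). Those 2 were Eif3l, a subunit of initiation factor eIF3 (-0.25, limma adjusted p = 0.249), and Eef1d, of the elongation factor 1 exchange complex (-0.27, adjusted p = 0.295). For TEKI the smallest p belonged to Hnrnpa1 (-0.22) and Eif2s3x (-0.18).

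Ribosome biogenesis factors (62 tested, 0 called by limma) had medians of -0.07 for TAKI and -0.09 for TEKI. For TEKI, 13 of 62 were above 0, against 12851 of 20564 over all genes. An unadjusted p under 0.05 was found for 6 in TAKI (all genes 14.7%) and 4 in TEKI (all genes 11.6%). Fbl, the methyltransferase of box C/D particles, gave -0.30 for TAKI (limma adjusted p = 0.148) and the helicase Ddx18 gave 0.34 (adjusted p = 0.132). Wdr43, of the small subunit processome, gave -0.25 for TEKI (adjusted p = 0.419) and Nolc1, a nucleolar chaperone, -0.23 (adjusted p = 0.424). The point farthest from the rest was Rrp1b, named after its value was seen (TAKI minus WT 1.69, SE 0.594, limma adjusted p = 0.186), with an SD of 0.760 among WT livers.

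Genes of the mTORC1 and MYC pathways that control ribosome synthesis (25 tested, 0 called by limma) had medians of -0.07 for TAKI and -0.07 for TEKI. At an unadjusted p under 0.05 there was 1 for TAKI (all genes 14.7%) and 0 for TEKI (all genes 11.6%). The one was Mlst8, a subunit of the mTOR complexes (-0.27, limma adjusted p = 0.316). Maf1, a repressor of RNA polymerase III, gave -0.21 for TAKI, and Mdm2 and the S6 kinase Rps6kb2 gave -0.24 and 0.22 for TEKI. Mitochondrial ribosomal proteins (75 tested, 0 called by limma) had medians of -0.06 for TAKI and 0.01 for TEKI. Of these, 0 for TAKI (all genes 14.7%) and 1 for TEKI (all genes 11.6%) had an unadjusted p under 0.05. Mrps21 (0.20) and Mrpl37 (-0.27) had the smallest p for TAKI, and Mrpl44 (-0.24) and Mrpl50 (-0.20) for TEKI.

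**Figure D5:**
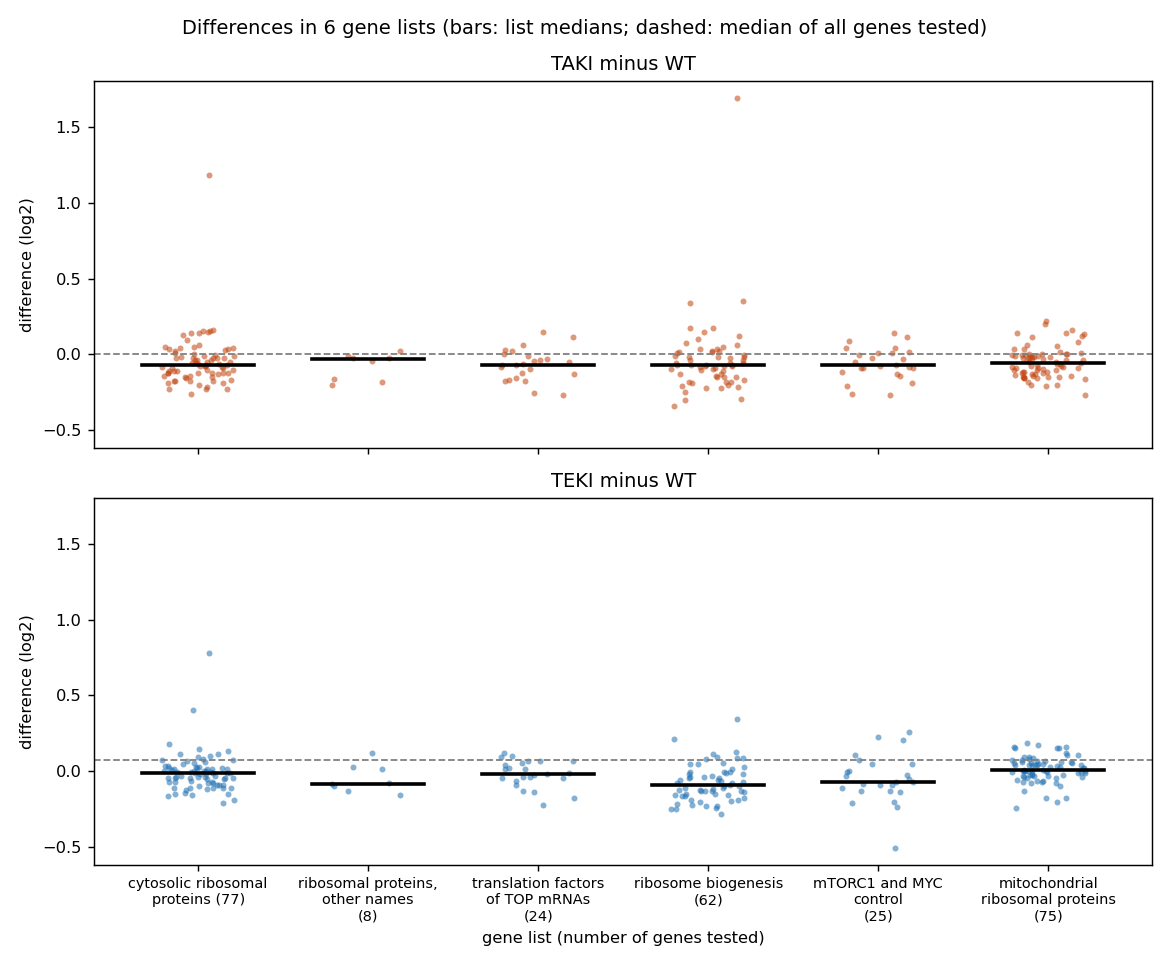
Differences (log2) of TAKI minus WT (top) and TEKI minus WT (bottom) in the 77 ribosomal protein genes and 5 related gene lists; points are genes, bars list medians and the dashed line the median of all genes tested. List medians lie between -0.09 and 0.01 in both panels. The high points are Rpl3l, which was well above background in 0 of 5 WT livers, and, at the top, Rrp1b (1.69).

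Between TEKI and TAKI, the 5 related lists also had 0 genes called by limma. At an unadjusted p under 0.05 were 5 of 62 biogenesis factors, 2 of 75 mitochondrial ribosomal proteins and 1 of 24 translation factors (all genes 12.1%). Wdr75 (-0.22) and Rrp12 (0.56) had the smallest p among biogenesis factors, with limma adjusted p of 0.253 and 0.306. Mrps11 (0.30) and Mrps26 (0.29) did so among mitochondrial ribosomal proteins, Hnrnpa1 (-0.37) and Eef1g (0.19) among translation factors, Rpl22l1 (-0.18) among the other ribosomal proteins, and Mnt (-0.34) and Maf1 (0.20) in the mTORC1 and MYC list.

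As these are whole livers, fewer cells of a type and less RNA per cell cannot be told apart. Markers of lymphocytes, 12 of 15 of them well above background on all arrays, had a median of 0.42 for both TAKI and TEKI minus WT. By limma, 2 of 15 were called higher in TAKI (Cd2 among them), against 391 of 20564 over all genes. For TEKI minus WT 0 of 15 were called (all genes 0.00486%). The summed level of these 15 spanned 1.58 to 1.95 over the WT livers, 1.91 to 2.42 over the TAKI livers and 1.82 to 2.52 over the TEKI livers. Markers of macrophages, endothelial cells, fibroblasts and stellate cells, and cholangiocytes had 0 called by limma of 10, 10, 10 and 7 for TAKI and for TEKI minus WT. At an unadjusted p under 0.05 were 0, 2, 0 and 0 for TAKI (all genes 14.7%) and 0, 3, 0 and 0 for TEKI (all genes 11.6%). Their medians were 0.20, 0.16, -0.01 and 0.15 for TAKI minus WT, and 0.03, 0.31, -0.10 and 0.14 for TEKI minus WT. Of 9 pancreatic acinar markers, 4 of which were well above background on all arrays, Rnase1 and Zg16 were called lower in TAKI than in WT and higher in TEKI than in TAKI (all genes 2.84% and 3.46% called in either direction). The list had medians of -0.15 for TAKI minus WT (4 of 9 above 0), 0.89 for TEKI minus WT (8 of 9) and 0.68 for TEKI minus TAKI (8 of 9). Its summed level spanned 1.68 to 2.84 over the WT livers, 1.68 to 2.89 over the TAKI livers and 1.94 to 2.84 over the TEKI livers. The part of these cells in the levels of ribosomal protein genes was not tested.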

How the data were processed

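The deposited files hold 1 processed intensity per spot, made with Agilent Feature Extraction 9.5, per the submitters' processing notes, with background subtraction and spatial detrending inside each array, per the file headers, and arrays not scaled to each other. The authors' value table holds the same intensities (largest difference 0). Here, spots of a probe were averaged, flagged outlier spots left out, and log2 intensities set relative to the 75th percentile of their array. Per gene name, the brightest probe was tested if well above background on at least 3 arrays. This left 20564 genes. The test was limma (3.58.1, run in R 4.3.3), with 1 model of 3 genotypes over 13 arrays (10 residual degrees of freedom), with Benjamini-Hochberg adjustment over all genes. The script was tested on simulated data.

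Named members are the extremes of each comparison and of the WT spread, the genes of known roles, and those whose probes differ most. From each related list, the 2 genes of smallest p are named. Some genes that these rules name are not reported here. The members and lists were chosen with earlier results of these data known. Sequences are from RefSeq. No protein sequence was used here.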

Additional observations from a re-analysis of the deposited data

Results flagged for a closer look

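Of 68 groups of values with 4 or more arrays, among them levels of the 33 named members, 2 had a value far from the others. As chance gives about 1 in 20, this count is no more than chance gives. Rpl18 in WT liver 2 stood at 4.77, with the nearest WT liver at 5.02. In that liver, 1 of 76 ribosomal protein genes stood above its WT mean. Rpl36a in TAKI liver 2 stood at 6.57, with the nearest TAKI liver at 6.25. In that liver, 62 of the 76 genes stood above their WT mean.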

How the results depend on the processing

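Over 28 alternatives, 6157 tests of members gave 2 calls, both for TAKI minus WT: 1 member with only the 2 groups compared and 1 (Rps20, -0.26) with array weights. The first is Rpl3l, which no WT array measured well above background, so nothing rests on that call. Over all 20564 genes those 2 settings called 1347 and 2263. The other settings called 0. An intensity trend in the spread, chosen after seeing the data, called 0, with 4, 0 and 0 at an unadjusted p under 0.05. The median TAKI minus WT difference was -0.22 under median scaling (all genes -0.15) and 0.15 without scaling (all genes 0.22). For TEKI minus WT it was -0.44 under median scaling (all genes -0.36) and -0.19 with slide as a fixed block, as within slide 3. For TEKI minus TAKI it was -0.24 under median scaling and -0.23 without scaling. Leaving out each array in turn called 0 members and gave medians of -0.13 (without WT replicate 2) to -0.02 (without WT replicate 5) for TAKI minus WT, -0.08 (without WT replicate 2) to 0.03 (without TEKI replicate 1) for TEKI minus WT and 0.00 (without TEKI replicate 2) to 0.09 (without TEKI replicate 1) for TEKI minus TAKI. Related lists had 3 calls with array weights for TAKI minus WT (Ddx18, Fbl and Mlst8), and for TEKI minus TAKI 3 under normexp (Imp4, Rrp12 and Mnt) and 1 without scaling (Mnt). Over all 20564 genes the same settings and comparisons called 2263, 4278 and 610. The causes were not tested. Replicate numbers showed no clear pairing of the mice. Correlations of deviations ran from -0.23 to 0.32 for the same number (median 0.10) and from -0.44 to 0.44 for different numbers (median -0.02). With a replicate block, 0 members were called and the medians were -0.07, 0.00 and 0.06. Of 2637 alternative values of named members, 225 moved by 1 SD of the WT livers or more. The 2637 include settings that cannot change a difference, such as leaving out arrays of the third genotype or an intensity trend in the spread. Counts of all genes called for TAKI minus WT ran from 258 (well above background on all arrays) to 2263 (array weights), against 585.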
